A study of Homo sapiens with 4 samples.

Results

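Rab proteins are small GTPases that sit on the membranes of a cell and mark which compartment is which. The genes described here are all rows of the deposited expression files whose symbol is RAB followed by a number, with or without further letters and digits. This rule found 72 of 26255 gene symbols. Of these, 62 encode Rab GTPases and 10 are other genes with a similar symbol, namely regulators and effectors such as RAB3GAP1 and RAB11FIP1 and the pseudogene RAB9BP1. The mean over the libraries reached 1 FPKM, the minimum for testing, in 45 of the 62 GTPases and in 7 of the other 10 genes. FPKM (fragments per kilobase, scaled by library size) divides by transcript length, so levels of different genes can be set side by side.

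Polyadenylated RNA was sequenced from MRC5, a fibroblast line from human fetal lung whose genotype label is WT. There were 2 libraries of MRC5 cells treated with miRs, meaning microRNAs, and 2 control libraries of MRC5 cells whose treatment label reads no; all 4 titles give 48 h. Which microRNAs were used is not in the labels. The series title mentions NC-miR, and whether control cells were given a negative-control microRNA is not stated. Separate cultures are not stated for the replicates either, so a p-value here reflects library-to-library spread that may be technical.

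A Rab protein switches between a GDP-bound state, held in the cytosol by GDP dissociation inhibitors, and a GTP-bound state on a membrane. Exchange factors switch it on, GTPase-activating proteins switch it off, and effectors such as tethers and motor adaptors bind the active form and move or fuse vesicles. In fibroblasts these routes carry collagen and other secreted proteins out through the Golgi and bring receptors and adhesion proteins in through endosomes. RAB32 and its relatives RAB38 and RAB29 serve lysosome-related organelles, best known from the pigment granules of melanocytes, and RAB32 has also been placed on mitochondria.

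The fibroblast label was borne out by its markers: 14 of 14 fibroblast markers reached 1 FPKM, and their summed level was 7627 and 12981 FPKM in miRs libraries, against 11263 and 11407 FPKM in control libraries. Collagens and VIM carry that sum. Of the 14, both miRs libraries lay below both controls for DCN, FAP, LUM, THY1 and VIM and above both for S100A4, the median difference was −0.31, and 0 were called. DCN had 352 and 419 FPKM in miRs libraries, against 963 and 1223 FPKM in control libraries, and FAP had 7.91 and 11.7 FPKM in miRs libraries, against 30.5 and 33.8 FPKM in control libraries. Melanocyte markers, which bear on RAB32 and RAB38, reached 1 FPKM in 2 of 7 cases, and 3 of the 7 were at 0 in all 4 libraries. The summed level of 20 interferon-response genes was 12076 and 2338 FPKM in miRs libraries, against 114 and 136 FPKM in control libraries. The summed level of 11 epithelial markers was 199.95 and 268 FPKM in miRs libraries, against 30.1 and 32.3 FPKM in control libraries. KRT18 carried most of that sum, at 137 and 194 FPKM in miRs libraries, against 17.7 and 19.4 FPKM in control libraries. Of the 11, 7 reached 1 FPKM and 5 were tested. CDH1 was at 0 in both miRs libraries, and KRT5 and ESRP1 were at 0 throughout. The interferon and epithelial sums and these fibroblast markers moved with the groups, and their part in the values below was not tested. In bulk RNA, fewer cells of a type and less RNA per cell cannot be told apart. The 2 miRs libraries differed more from each other (Pearson's r of 0.949 across genes, which are not independent replicates) than the 2 controls did (r of 0.985), and 14 tested Rab GTPases lay over 1.5-fold apart within the miRs pair, against 0 within the control pair.

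Among Rab genes only RAB32 passed the test. RAB32 fell: it had 9.88 and 6.82 FPKM in miRs libraries, against 58.8 and 52.6 FPKM in control libraries. Both miRs libraries lay far below both controls, and the groups did not overlap. The means were 8.35 ± 2.17 FPKM in miRs and 55.7 ± 4.43 FPKM in control libraries (SD, n = 2 each), a 6.67-fold lower level, or −2.62 ± 0.20 (SE) on the log2(FPKM + 1) scale on which all differences below are given (limma, adjusted p = 0.0433). Only 17 of the 11860 genes tested had a lower difference. RAB32 made up 0.774% and 0.543% of all Rab GTPase FPKM in miRs libraries, against 3.73% and 3.48% in control libraries. The call has little margin: the adjusted p was 0.118 with no minimum level, 0.0528 after quantile normalization and 0.0526 without the variance trend. It was 0.453 without control replicate 1, 0.375 without control replicate 2, 0.00540 without miRs replicate 1 and 0.00230 without miRs replicate 2.

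Over all genes tested, 0.245% were called in either direction, 0.143% lower and 0.101% higher. Against this, 1 of the 45 GTPases was called lower, 0 higher, and 0 of the 7 other genes in either direction. At an unadjusted p under 0.05, 10 GTPases were lower and 4 were higher (22.2% and 8.89%), beside 13.0% and 11.2% of all genes tested. The count of Rab genes called, out of 52, was 0 without either control library, 10 (19.2%) without miRs replicate 1 and 19 (36.5%) without miRs replicate 2. Over all genes tested, 13.9% were called without miRs replicate 1 and 31.6% without miRs replicate 2, against 0% without control replicate 1 and 0.00843% without control replicate 2. In each of those fits the lone library of a group is assumed to vary like the 2 libraries of the other group, and the control pair lay closer together than the miRs pair. RAB32, RAB3B, RAB4A, RAB22A and RAB5C were called lower in both fits that left out a miRs library. The other calls appeared in 1 of these fits: RAB6A, RAB7A and RAB11A lower and RAB31 and RAB43 higher without miRs replicate 1, and RAB1B, RAB4B, RAB5B, RAB11B, RAB13, RAB26, RAB34, RAB40B, RAB11FIP1 and RAB11FIP3 lower and RAB8A, RAB9A, RAB10 and RAB38 higher without miRs replicate 2.

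The 45 tested GTPases had a median log2 difference of −0.13, beside −0.0020 for all genes tested, and −0.11 without RAB32. The mean was lower in miRs for 26 and higher for 19, beside 5958 and 5902 of all 11860 genes tested. Both miRs libraries lay below both controls in 19 of the 45 (42.2%) and above both in 12 (26.7%), beside 30.0% and 29.5% of all genes. A difference of −0.5 or lower was found in 10 GTPases and one of 0.5 or higher in 4, again 22.2% and 8.89%, beside 12.7% and 12.0% of all genes. The median depends on the level of the genes included, at −0.077 with no minimum and −0.072 with a minimum of 5 FPKM.

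**Figure D1:**
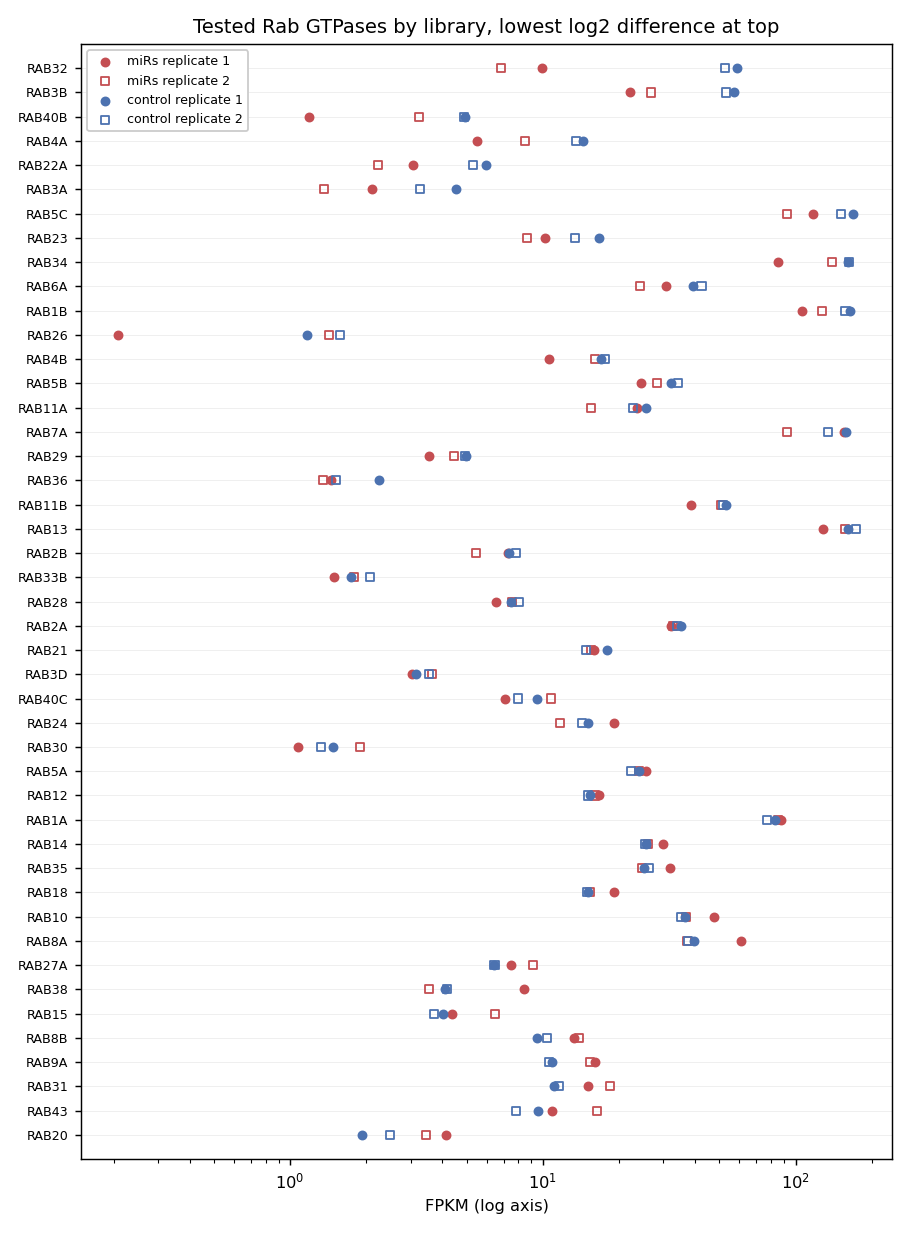
FPKM of each tested Rab GTPase in each library on a log axis, ordered by the log2 difference with the lowest at the top; red marks are the miRs libraries and blue marks the control libraries, filled for replicate 1 and open for replicate 2. RAB32 has its 2 miRs marks (9.88 and 6.82 FPKM) far left of its control marks (58.8 and 52.6 FPKM), and the other rows have narrower gaps or overlapping colours.

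The comparison of RAB32 with its relatives asks whether its subfamily moved with it. By global alignment of the annotated proteins, RAB38 shared 66.8% of aligned residues with RAB32 (139 of 208) and RAB29 52.0% (104 of 200), while the next GTPase, RAB6B, shared 40.4% and the lowest of all shared 27.9%. RAB38, the partner of RAB32 in delivering enzymes to melanosomes, had 8.45 and 3.55 FPKM in miRs libraries, against 4.11 and 4.18 FPKM in control libraries. One miRs library lay above and the other below both controls, and the difference was 0.35 ± 0.37 (limma, adjusted p = 0.598); leaving out miRs replicate 1 gave −0.18, and leaving out miRs replicate 2 gave 0.88 with an adjusted p of 0.0165. RAB29, a Golgi and lysosome protein that recruits the kinase LRRK2, had 3.54 and 4.43 FPKM in miRs libraries, against 4.98 and 4.93 FPKM in control libraries. Both miRs libraries were below both controls, by a difference of −0.26 ± 0.16 that did not pass the test (limma, adjusted p = 0.369).

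In every library RAB32 was the highest of the 3, but by much less in miRs. The ratio of RAB32 to RAB38 was 1.17 and 1.92 in miRs libraries, against 14.3 and 12.6 in control libraries. The ratio of RAB32 to RAB29 was 2.79 and 1.54 in miRs libraries, against 11.8 and 10.7 in control libraries. RAB32 fell further than RAB38 by −2.97 ± 0.32 and further than RAB29 by −2.36 ± 0.34 on the log2 scale, by limma on the per-library ratio (adjusted p = 6.99515e-05 and 0.000251). With an ordinary fit per gene, chosen after seeing the data, the adjusted p was 0.0219 for RAB38 and 0.0335 for RAB29. With RAB32 lower, the ratio fit passed 11777 of the 11859 other genes tested and the ordinary fit 10268. Passing is therefore not particular to the relatives of RAB32. RAB32 was singled out by earlier results, so these p-values are too small. The summed level of the 3 genes was 21.9 and 14.8 FPKM in miRs libraries, against 67.9 and 61.7 FPKM in control libraries.

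**Figure D2:**
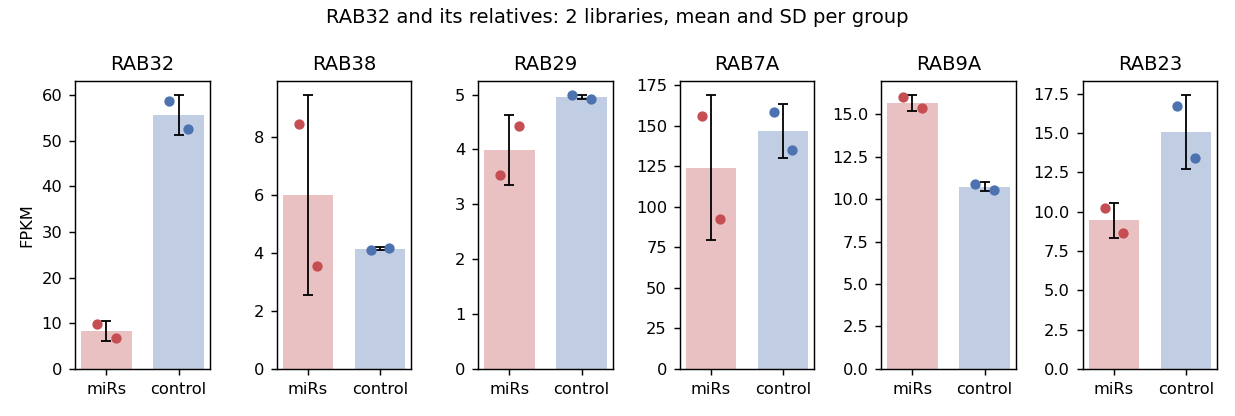
FPKM of RAB32, RAB38, RAB29, RAB7A, RAB9A and RAB23 in miRs (left bar) and control (right bar) libraries, with each gene on its own axis from 0; bars are means, points the 2 libraries and whiskers the SD. RAB32 has the widest gap between groups, and RAB38 and RAB7A have miRs points on both sides of a control point.

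More distant relatives were set against RAB32 in the same way. The difference of its log2 difference from theirs was −2.34 ± 0.25 for RAB7A, −3.12 ± 0.27 for RAB9A and −2.001 ± 0.26 for RAB23 (limma, adjusted p = 6.79e-05, 5.60e-05 and 0.000144). RAB32 was lower in this sense than all 44 other tested GTPases, but the same held for 99.3% of all genes tested (11777 of 11859). RAB32's own values enter every one of these ratios and RAB32 was singled out by earlier results, so these p-values are too small. The unmoderated fit passed 38 of the 44, beside 10268 of the 11859 other genes tested. The exceptions among the GTPases were RAB4B, RAB26, RAB34, RAB4A, RAB40B and RAB3B.

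**Figure D3:**
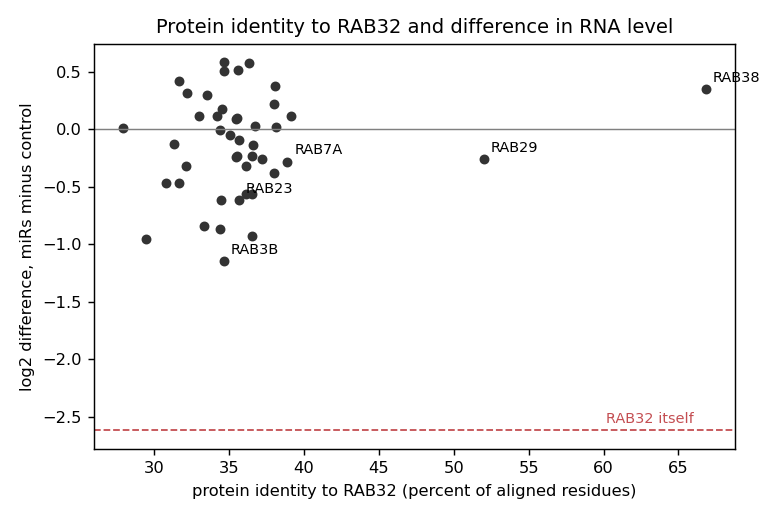
Log2 difference, miRs minus control, of each other tested Rab GTPase against its protein identity to RAB32 in percent of aligned residues; the dashed line marks RAB32 itself at −2.62. RAB38 at 66.8% and RAB29 at 52.0% stand apart on the identity axis and lie at 0.35 and −0.26, within the range of the more distant GTPases.

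On the late endosome, RAB7A and RAB9A did not move alike. RAB7A, which drives late endosomes towards fusion with lysosomes, was among the most abundant Rab RNAs at 156 and 92.5 FPKM in miRs libraries, against 159 and 135 FPKM in control libraries. The groups overlapped, and the difference was −0.28 ± 0.28 (limma, adjusted p = 0.577). Leaving out miRs replicate 2 gave 0.09, and leaving out miRs replicate 1 gave −0.65 with an adjusted p of 0.0483. RAB9A, which returns mannose 6-phosphate receptors from late endosomes to the Golgi, had 16.0 and 15.4 FPKM in miRs libraries, against 10.9 and 10.6 FPKM in control libraries. Both miRs libraries were above both controls, a difference of 0.51 ± 0.12 that missed the threshold (limma, adjusted p = 0.112). RAB9B and RAB42 were under the minimum for testing, with RAB9B at 0.328 and 0.234 FPKM in miRs and 0.297 and 0.408 FPKM in control libraries.

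Of the 8 tested GTPases of uptake and the early endosome, 4 had a lower and 4 a higher mean in miRs, and none passed the test. RAB5C, a regulator of early endosome fusion and the highest of them, had 117 and 92.3 FPKM in miRs libraries, against 169 and 152 FPKM in control libraries. Both miRs libraries were lower, by −0.62 ± 0.17 (limma, adjusted p = 0.135). Its paralogs stood differently: RAB5B had 24.6 and 28.2 FPKM in miRs libraries, against 32.2 and 34.1 FPKM in control libraries, and RAB5A had 25.5 and 24.1 FPKM in miRs libraries, against 24.1 and 22.3 FPKM in control libraries. RAB22A, which acts on endosomes and in tubular recycling, had 3.08 and 2.23 FPKM in miRs libraries, against 5.98 and 5.29 FPKM in control libraries (−0.87 ± 0.18, limma adjusted p = 0.0962). RAB31, the close relative of RAB22A that works between the Golgi and endosomes, went the other way in both libraries, at 15.05 and 18.4 FPKM in miRs and 11.1 and 11.6 FPKM in control libraries (0.51 ± 0.15, limma adjusted p = 0.147). RAB20, found on phagosomes and endosomes, had the highest difference of all tested GTPases, with 4.14 and 3.45 FPKM in miRs libraries, against 1.93 and 2.48 FPKM in control libraries (0.58 ± 0.18, limma adjusted p = 0.158). RAB21 and RAB24 lay within −0.05 and 0.02.

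Among the 7 tested recycling GTPases, 4 had a lower mean and 3 a higher one. RAB4A, which returns receptors quickly from early endosomes to the surface, had 5.50 and 8.52 FPKM in miRs libraries, against 14.4 and 13.6 FPKM in control libraries. Both miRs libraries were well below both controls, and the difference of −0.93 ± 0.22 missed the threshold (limma, adjusted p = 0.110). Its paralog RAB4B had 10.5 and 16.1 FPKM in miRs libraries, against 16.97 and 17.6 FPKM in control libraries. RAB11B, the most abundant of this group and a marker of slow recycling, had 38.5 and 50.8 FPKM in miRs libraries, against 53.0 and 51.8 FPKM in control libraries (−0.24 ± 0.17); it was −0.04 with miRs replicate 1 left out and −0.44 with miRs replicate 2 left out. RAB15, a regulator of endosomal recycling, was higher in both miRs libraries at 4.36 and 6.48 FPKM, against 4.03 and 3.70 FPKM in control libraries (0.38 ± 0.21, limma adjusted p = 0.333); it was 0.62 with miRs replicate 1 left out and 0.14 with miRs replicate 2 left out. RAB14, which works between the Golgi and endosomes, had 29.8 and 26.0 FPKM in miRs libraries, against 25.7 and 25.5 FPKM in control libraries, a difference of 0.12.

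The endoplasmic reticulum and Golgi group had the highest summed level of the groups, and 7 of its 11 tested GTPases had a lower and 4 a higher mean in miRs. Its sum was 384 and 453 FPKM in miRs libraries, against 522 and 511 FPKM in control libraries. RAB1A and RAB1B, closely related proteins that carry cargo from the endoplasmic reticulum to the Golgi, differed in direction. RAB1B had 106 and 128 FPKM in miRs libraries, against 165 and 158 FPKM in control libraries (−0.47 ± 0.15, limma adjusted p = 0.161). RAB1A had 88.0 and 85.3 FPKM in miRs libraries, against 83.2 and 76.8 FPKM in control libraries (0.11 ± 0.12, limma adjusted p = 0.601). Neither passed the test, and in both genes the groups did not overlap. RAB6A, which directs traffic within and out of the Golgi, had 30.7 and 24.3 FPKM in miRs libraries, against 39.2 and 42.5 FPKM in control libraries (−0.56 ± 0.16, limma adjusted p = 0.145).

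RAB34, a Golgi and cilium protein, had 85.6 and 139.7 FPKM in miRs libraries, against 161 and 163 FPKM in control libraries, with the miRs libraries far from each other (−0.56 ± 0.26, limma adjusted p = 0.267). The difference of RAB34 was −0.21 with miRs replicate 1 left out and −0.91 with miRs replicate 2 left out (limma, adjusted p = 0.165 and 0.00900). RAB43, placed on the Golgi and the endoplasmic reticulum, had 10.9 and 16.4 FPKM in miRs libraries, against 9.56 and 7.80 FPKM in control libraries (0.58 ± 0.24, limma adjusted p = 0.230). Its value is uncertain, since the readthrough gene ISY1-RAB43 overlaps it and was listed at 12.02 and 11.7 FPKM in miRs and 9.85 and 11.6 FPKM in control libraries. NARR, which overlaps RAB34, was at 0 and 3.06 FPKM in miRs and at 1.04 and 0 FPKM in control libraries. RAB18, known from lipid droplets, had 19.1 and 15.4 FPKM in miRs libraries, against 15.1 and 14.9 FPKM in control libraries. RAB2A, RAB2B, RAB30, RAB33B and RAB36 lay between −0.26 and 0.03. The antisense genes of RAB11B and RAB30 were listed too, and the strand setting of the counting is not known here.

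The 10 tested secretory GTPases divided evenly, 5 with a lower and 5 with a higher mean in miRs. RAB3B, a regulator of exocytosis, had 22.1 and 26.7 FPKM in miRs libraries, against 56.8 and 53.0 FPKM in control libraries. The groups were far apart, and the difference of −1.14 ± 0.15 was the lowest after that of RAB32, without passing the test (limma, adjusted p = 0.0667). RAB3A, its paralog on synaptic vesicles, had 2.103 and 1.36 FPKM in miRs libraries, against 4.55 and 3.25 FPKM in control libraries (−0.84 ± 0.23, limma adjusted p = 0.138). RAB3D, the paralog of secretory granules in gland cells, differed by −0.0044, with 3.03 and 3.64 FPKM in miRs libraries, against 3.15 and 3.54 FPKM in control libraries.

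RAB13, a regulator of junctions and of delivery to the surface, was the most abundant Rab RNA on average, at 128 and 157 FPKM in miRs libraries, against 161 and 173 FPKM in control libraries (−0.23 ± 0.15). RAB8B, one of the GTPases of delivery from the Golgi to the surface, had 13.3 and 13.9 FPKM in miRs libraries, against 9.45 and 10.4 FPKM in control libraries (0.42 ± 0.13, limma adjusted p = 0.154). RAB10, of the same branch, had 47.8 and 36.95 FPKM in miRs libraries, against 36.5 and 35.4 FPKM in control libraries (0.22 ± 0.17); it was 0.04 with miRs replicate 1 left out and 0.40 with miRs replicate 2 left out. RAB8A had 60.7 and 37.3 FPKM in miRs libraries, against 39.5 and 37.4 FPKM in control libraries, so a single miRs library stood apart. RAB27A, which docks secretory lysosomes and exosome-bearing endosomes, had 7.49 and 9.11 FPKM in miRs libraries, against 6.43 and 6.44 FPKM in control libraries (0.32 ± 0.15, limma adjusted p = 0.276). RAB26 was near the minimum for testing, at 0.208 and 1.42 FPKM in miRs and 1.16 and 1.58 FPKM in control libraries.

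RAB27B, the paralog of RAB27A in exosome release, lay under the minimum for testing and was chosen after its values were seen. It had 1.98 and 1.31 FPKM in miRs libraries, against 0.121 and 0.203 FPKM in control libraries, so both miRs libraries were above both controls. In the fit with no minimum level, the difference was 1.18 ± 0.16 (limma, adjusted p = 0.118). RAB17 and RAB25, known from epithelia, stayed near 0: RAB17 was at 0.0449 and 0.256 FPKM in miRs libraries and at 0 in both controls, and RAB25 was at 0 and 0.0954 FPKM in miRs libraries and at 0 in both controls.

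In the remaining group, RAB23, a negative regulator of Hedgehog signalling at the cilium, had 10.2 and 8.67 FPKM in miRs libraries, against 16.7 and 13.4 FPKM in control libraries (−0.62 ± 0.17, limma adjusted p = 0.138). RAB40B, a SOCS-box Rab that recruits a ubiquitin ligase, had 1.19 and 3.25 FPKM in miRs libraries, against 4.91 and 4.88 FPKM in control libraries (−0.95 ± 0.35, limma adjusted p = 0.197). The difference of RAB40B was −0.47 with miRs replicate 1 left out and −1.43 with miRs replicate 2 left out (limma, adjusted p = 0.0935 and 0.00916). RAB28 and RAB40C lay at −0.13 and 0.01. Of the 17 GTPases under the minimum, 5 (RAB19, RAB3C, RAB40AL, RAB44 and RAB6C) were listed at 0 in all 4 libraries, and RAB6C and RAB40AL are near-copies of RAB6A and RAB40A, so fragments could have been assigned to either copy. RAB33A, RAB37, RAB39A, RAB39B, RAB40A, RAB41 and RAB6B stayed under 1 FPKM in each library. RAB7B is not analysed here.

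**Figure D4:**
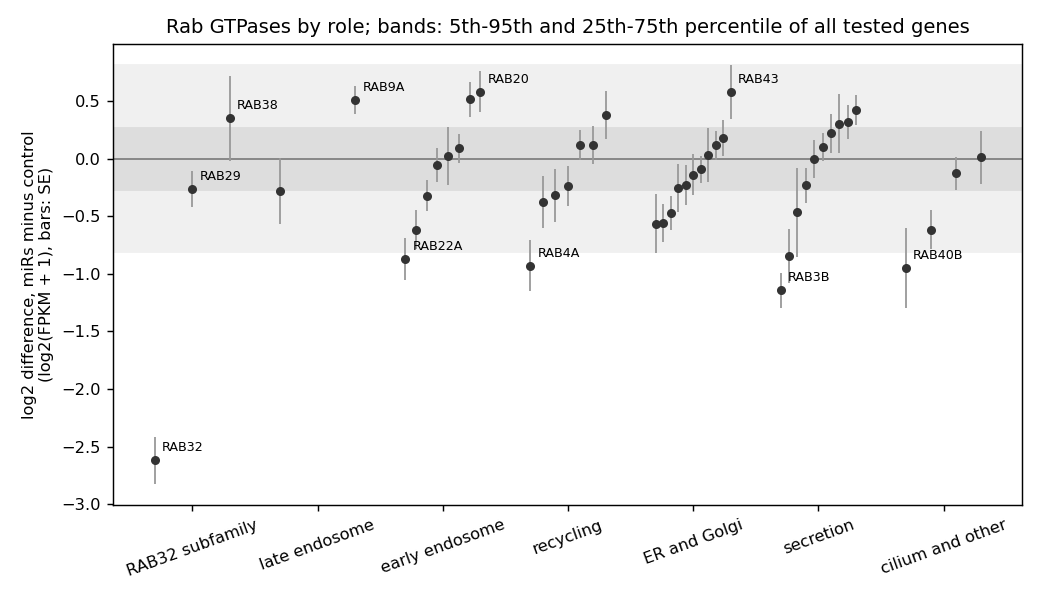
Log2 difference, miRs minus control, of each tested Rab GTPase with its SE, arranged by role; the pale and dark bands span the 5th to 95th and the 25th to 75th percentile of all tested genes. RAB32 at −2.62 is the lowest of the 6 GTPases below the pale band, RAB3B at −1.14 is next, and none lies above the band.

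Summed over the 62 GTPases, Rab RNA was 1276 and 1257 FPKM in miRs libraries, against 1575 and 1511 FPKM in control libraries, a ratio of 0.821. Without RAB32 the ratio was 0.846. Such sums are carried by the most abundant genes. Gene by gene, 26 of the 45 tested GTPases had a lower and 19 a higher mean in miRs. Both miRs sums were below both control sums in every group except the late endosome. The late endosome group summed to 173 and 109 FPKM in miRs libraries, against 170 and 147 FPKM in control libraries. No sums over sets of other genes were made, so how often such a pattern arises is not known here. In the RAB32 subfamily, RAB32 itself gave 58.8 and 52.6 of the 67.9 and 61.7 FPKM in control libraries. The early endosome group summed to 224 and 196 FPKM in miRs libraries, against 277 and 257 FPKM in control libraries, and the secretory group to 304 and 305 FPKM in miRs libraries, against 334 and 339 FPKM in control libraries.

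**Figure D5:**
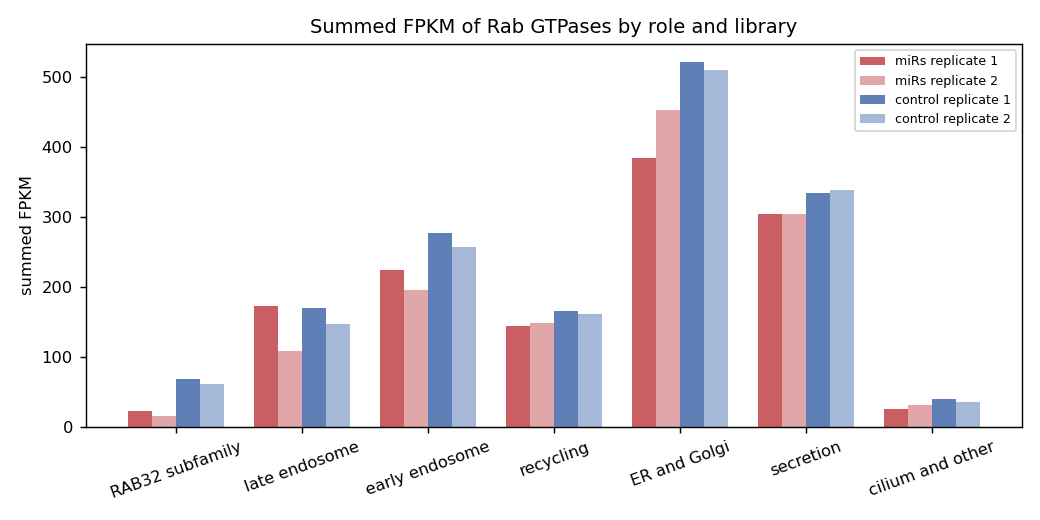
Summed FPKM of the Rab GTPases of each role in each library, with miRs bars (red) left of control bars (blue). Endoplasmic reticulum and Golgi GTPases make up the tallest bars, 384 and 453 FPKM in miRs and 522 and 511 FPKM in control libraries, and the late endosome is the group whose bars overlap.

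Since the microRNAs are unnamed, the 3′ untranslated regions (UTRs) of the tested GTPases were searched for seed matches of 4 families chosen with earlier results known. A microRNA seed, bases 2 to 8, pairs with a 7-base match in the target. The mature sequences are from RefSeq (GRCh38.p14), shown because their seeds define the searched letters, with the seed in capitals.
hsa-miR-302a-3p: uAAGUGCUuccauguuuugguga
hsa-miR-372-3p: aAAGUGCUgcgacauuugagcgu
hsa-miR-200c-3p: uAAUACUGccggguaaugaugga
hsa-miR-200a-3p: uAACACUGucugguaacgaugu
hsa-miR-369-3p: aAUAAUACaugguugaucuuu
The searched letters, on the transcript strand of the longest GENCODE 29 UTR, were AGCACTT for miR-302, CAGTATT for miR-200bc, CAGTGTT for miR-200a and GTATTAT for miR-369-3p. A UTR of at least 20 bases was available for all 45 tested GTPases and for 91.1% of the tested genes.

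RAB32, the gene that fell, had none of the 4 matches in its UTR of 360 bases. A match of miR-302 was present in 15 of the 45 GTPases (33.3%), beside 25.2% of all tested genes. Its carriers had a median difference of −0.26 and the other GTPases 0.0044, while over all genes the medians were −0.05 and 0.02. Carriers also had longer UTRs, with a median of 2890 bases against 1495 bases in the other GTPases. For the other families, carriers were 13 GTPases for miR-200bc (28.9%, beside 19.4% of all genes), 11 for miR-200a (24.4%, beside 21.7%) and 10 for miR-369-3p (22.2%, beside 15.1%). Their medians with and without a match were −0.14 and −0.11, 0.12 and −0.24, and 0.10 and −0.23. A match is a description and no evidence of binding, and nothing follows for a gene without these letters.

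RAB22A and RAB3B, the GTPases with the most miR-302 matches among those at −0.5 or lower, are shown with their matches. Matches are in capitals with 10 bases on each side, from GENCODE 29 (GRCh38), and positions count from the first base of the UTR. RAB22A had 3 matches in 7804 bases, at 340, 543 and 1061.
RAB22A at 340: agggaaaattAGCACTTttgtggttct
RAB22A at 543: ccatctctaaAGCACTTttcattgaac
RAB22A at 1061: aaaggtatagAGCACTTagcttacaat
RAB3B had 6 matches in 11971 bases, of which those at 6059 and 11012 are shown; the other 4 follow the same run of bases as one another and are not shown.
RAB3B at 6059: ccaacacagaAGCACTTttcaagctct
RAB3B at 11012: cagttcccaaAGCACTTtcccatccat
Over the 14 tested GTPases whose matches were read out (RAB2A was left out), 10 of 25 matches, in 6 genes, follow that same run of bases, among them both matches of RAB29 and the single match of RAB40B. Carriers were counted with these matches included. RAB23, RAB6A and RAB7A each had 1 match, of the other kind.
RAB23: ttgtttgtatAGCACTTtctcaagagc
RAB6A: atattcagagAGCACTTggattatgga
RAB7A: tgcttaacggAGCACTTctcctttttc
RAB38 had no miR-302 match, and RAB24, RAB27A, RAB31 and RAB43, whose means were higher in miRs, had 1 each.

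The 7 tested genes of the rule that are not GTPases include effectors and regulators, and 4 had a lower and 3 a higher mean in miRs. RAB11FIP1, an effector of RAB11 in recycling, had 2.81 and 5.31 FPKM in miRs libraries, against 8.02 and 9.39 FPKM in control libraries (−0.98 ± 0.28, limma adjusted p = 0.141). RAB11FIP3, which carries RAB11 vesicles during cell division, had 7.84 and 10.4 FPKM in miRs libraries, against 14.7 and 14.0 FPKM in control libraries (−0.61 ± 0.17, limma adjusted p = 0.139). RAB11FIP2, another RAB11 effector, had 4.56 and 4.50 FPKM in miRs libraries, against 3.24 and 3.28 FPKM in control libraries, higher in both (0.38 ± 0.14, limma adjusted p = 0.197). RAB11FIP5, RAB3GAP1, RAB3GAP2 and RAB3IL1 lay between −0.24 and 0.24, and RAB11FIP4, RAB3IP and RAB9BP1 were under the minimum for testing.

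The list of prenylation genes, GDP dissociation inhibitors and the PRA1 family held the other call of the Rab pathway lists. PRAF2, a membrane protein of the PRA1 family, fell: it had 20.99 and 18.6 FPKM in miRs libraries, against 61.3 and 64.7 FPKM in control libraries. The groups were far apart and the difference was −1.63 ± 0.13 (limma, adjusted p = 0.0486). The adjusted p of PRAF2 was 0.114 with no minimum level, 0.0535 after quantile normalization, 0.0557 without the variance trend, 0.483 without control replicate 1 and 0.469 without control replicate 2. CHML, an escort protein of prenylation, had 1.84 and 3.86 FPKM in miRs libraries, against 4.64 and 5.68 FPKM in control libraries (−0.73 ± 0.30). Of the 10 genes of this list 8 had a lower and 2 a higher mean, and 1 was called. Over all 11860 genes tested, 5958 had a lower and 5902 a higher mean, and 0.245% were called.

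The other pathway lists held no call, beside 0.245% of all genes tested. Their counts stand beside 5958 lower and 5902 higher means among all 11860 genes tested. Exchange factors had 18 of 31 tested genes with a lower mean and 13 with a higher one, with DENND3 at −0.61, SBF1 at −0.58 and DENND2D at 0.69 as those of smallest p. GTPase-activating proteins had 26 of 35 lower and 9 higher. RABGAP1, a GTPase-activating protein associated with RAB6, had 9.42 and 8.85 FPKM in miRs libraries, against 17.2 and 16.99 FPKM in control libraries (−0.84 ± 0.12, limma adjusted p = 0.0729). TBC1D8B and TBC1D2B, of the TBC family, lay at −0.80 and −0.71. Effectors had 25 of 37 lower and 12 higher, with the dynein adaptors of RAB6 vesicles, BICD2 and BICD1, at −0.91 and −0.95 (limma, adjusted p = 0.0769 and 0.0846).

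Partners of RAB32 and RAB38 in the route to lysosome-related organelles were measured in 22 tested genes. Of these, 13 had a lower and 9 a higher mean, beside 5958 and 5902 of all 11860 genes tested. BLOC1S6, a subunit of the BLOC-1 complex, had 6.81 and 8.47 FPKM in miRs libraries, against 16.3 and 16.5 FPKM in control libraries (−1.01 ± 0.15, limma adjusted p = 0.0731). HPS5, of BLOC-2, and SNAPIN, of BLOC-1, lay at −0.86 and −0.65 (limma, adjusted p = 0.0995 and 0.102). Other subunits of these complexes had higher means in miRs, among them HPS3, of BLOC-2, with 12.96 and 11.95 FPKM in miRs libraries, against 8.36 and 8.54 FPKM in control libraries (0.51 ± 0.13, limma adjusted p = 0.117). BLOC1S2, of BLOC-1, lay at 0.25. BLOC1S5, also of BLOC-1, lay at 0.32 ± 0.67. Its controls were far apart at 0.507 and 4.79 FPKM, and its miRs libraries lay between them at 3.31 and 2.17 FPKM. BLOC1S1 and BLOC1S3, of the same complex, were below both controls in both miRs libraries, at −0.56 and −0.39, and neither was called. HPS1 and HPS4, which form BLOC-3, the exchange factor of RAB32 and RAB38, differed less. HPS1 had 17.4 and 19.97 FPKM in miRs libraries, against 21.8 and 23.8 FPKM in control libraries. HPS4 had 5.55 and 6.27 FPKM in miRs libraries, against 4.88 and 6.51 FPKM in control libraries. ANKRD27 (VARP), the effector that links RAB32 and RAB38 to membrane fusion, had 7.38 and 6.56 FPKM in miRs libraries, against 8.27 and 7.35 FPKM in control libraries. LRRK2 stayed under the minimum for testing, at 0.254 and 0.243 FPKM in miRs libraries, against 0.719 and 0.947 FPKM in control libraries.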

How the data were processed

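The authors deposited FPKM values, 1 for each symbol in each library, per the file headers. Per the labels, RNA was taken with a column kit and libraries were made with a stranded, poly(A)-selecting kit. Tools in the submitters' processing notes are Cuffdiff 2.2.1, SAMtools 0.1.18, TopHat2 2.1.1 and Bowtie2 2.2.8, with build hg19; no source used here gives the annotation, strand setting or library scaling. The number of reads is unknown. Steps between low values put 1 fragment at an estimated 0.899 (miRs replicate 1), 1.03 (miRs replicate 2) and 1.05 (control replicate 2) times its FPKM worth in control replicate 1. Under these estimates only 51.7%, 52.1% and 55.9% of the low-valued genes used lay within 1% of a ratio of small whole numbers.

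Log2(FPKM + 1) was tested with limma 3.58.1 (R 4.3.3; moderated variance with a trend, 2-sided, 2 residual degrees of freedom) in the 11860 genes averaging 1 FPKM or more, with Benjamini-Hochberg adjustment over all of them and a threshold of 0.05. The script was run on simulated data that gave both groups the same spread. In the real data the miRs pair lay further apart than the control pair, which that run does not cover. An exact permutation test of 2 against 2 libraries cannot go below p = 0.333, so none is given. RAB32 was set against other genes by the same fit on per-library log2 ratios. UTRs and proteins came from GENCODE 29 (GRCh38, symbols matched; Python 3.11.15, Biopython 1.88), proteins translated from its coding sequences in place of the planned RefSeq proteins and aligned with BLOSUM62.

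Rab genes, role lists and microRNA families were chosen with earlier results of these data known. Named genes are RAB32 and its relatives, called genes, the 10 GTPases with the largest difference each way among those without overlap, the most abundant of each role, those of at least 50 FPKM, and the 3 smallest p of each pathway list; other names were added to show paralogs and remaining members after their values were seen. Alternatives were another pseudocount, minimum, scaling or variance model, a replicate block and each library left out. 1 gene of the pathway lists and some sequence windows are not reported here.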

Additional observations from a re-analysis of the deposited data

How the results depend on the processing

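Of 11860 genes tested, 29 were called; the count was 0 with no minimum level (by limma, with 3338 of 17682 genes at an unadjusted p under 0.05), 6 after quantile normalization, 99 with the replicate block, and 0 to 3746 with a library left out (0 without control replicate 1, 1 without control replicate 2, 1653 without miRs replicate 1 and 3746 without miRs replicate 2). Rab genes called, 1 in all, were 0 with no minimum, quantile normalization or no variance trend, and 0 to 19 with a library left out. RAB32 kept its direction in every alternative run, at −2.62 with no minimum (adjusted p = 0.118), −2.64 after quantile normalization (0.0528), −2.62 without the trend (0.0526) and −2.86 to −2.38 with a library left out. The GTPase median was −0.077 with no minimum, −0.072 with a minimum of 5 FPKM and −0.116 to −0.067 with a library left out. RAB38 ranged from −0.178 to 0.877 and RAB7A from −0.655 to 0.093 with a library left out; the cause was not tested.

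The replicate block gave RAB32 an adjusted p of 0.0443. Whether same-numbered libraries belong together beyond the number is not known here. Over all tested genes their deviations from the group means correlated at 0.20, with 2 pairs. Read numbers are unknown, so precision rests on 2 libraries a group.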
